A study of Rattus norvegicus with 9 samples.

Results

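Notch signalling in the embryonic ventral spinal cord was read from 9 genes: the receptors Notch1, Notch2 and Notch3, the ligands Dll1, Dll3 and Jag1, and the transcription factor genes Hes1, Hes5 and Hes6. Every probe set whose array annotation gave exactly 1 gene symbol equal to one of these names was taken, which gave 11 of 31042 probe sets, 2 each for Notch1 and Hes5 and 1 for each of the other genes. The annotation tied 6 of the 11 to a RefSeq mRNA and the others to another sequence entry. Each of the 9 Affymetrix rat arrays carried total RNA from the ventral spinal cord of 1 pool of 5 rat embryos at embryonic day 14. There were 4 pools of a line carrying human SOD1 with the mutation G93R (mutant hSOD1, titles with the name Roth), 4 pools of a line carrying unmutated human SOD1 (wild-type hSOD1, titles with the name Chan), and 1 negative control pool (SDneg), whose description also speaks of positive embryos and which has no replicate. Human SOD1 makes an antioxidant enzyme, and its mutations are one cause of inherited amyotrophic lateral sclerosis, in which motor neurons die. The labels name no promoter for the transgenes, and mutation, line and site of insertion cannot be told apart, since each transgene came from 1 line.

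In the developing cord, a Notch receptor on a progenitor is activated by a Delta or Jagged ligand on its neighbour, cut by ADAM proteases and gamma-secretase, and its intracellular part enters the nucleus to work with the DNA-binding protein Rbpj. Hes1 and Hes5 are the classic targets: they repress proneural genes and hold cells as progenitors. Dll1 is switched on in cells that start to become neurons, and Hes6 is a relative that counteracts Hes1 and is made in differentiating neurons. Notch3 is also known from mural cells of blood vessels, and Dll3 acts inside the cell without activating receptors on neighbours.

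The promoters of the 9 genes were searched for TGGGAA or its complement TTCCCA, the core of the Rbpj binding sequence, in the 250 bases before the start site given by RefSeq (build GRCr8). Hes1, Hes5 and Dll1 held 2 matches each, and the other 6 held 0. Over all 33469 promoters of the same length, 22.1% held at least 1 match and 2.71% held 2 or more. These 3 promoters are shown because they are the ones with matches, with the matches in capitals, 5′ to 3′ on the gene's strand:
Hes1 (chr11:84213046-84213295, minus strand): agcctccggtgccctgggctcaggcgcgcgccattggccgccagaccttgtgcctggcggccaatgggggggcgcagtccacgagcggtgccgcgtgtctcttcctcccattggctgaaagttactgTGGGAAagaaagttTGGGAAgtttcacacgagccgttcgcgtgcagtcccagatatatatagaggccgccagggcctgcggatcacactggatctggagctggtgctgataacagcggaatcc
Hes5 (chr5:170804327-170804576, plus strand): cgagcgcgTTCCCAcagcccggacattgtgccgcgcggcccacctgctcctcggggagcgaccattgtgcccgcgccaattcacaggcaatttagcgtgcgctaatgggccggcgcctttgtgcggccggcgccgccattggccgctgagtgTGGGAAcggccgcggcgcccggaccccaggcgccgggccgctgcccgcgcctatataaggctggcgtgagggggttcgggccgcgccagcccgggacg
Dll1 (chr1:64993275-64993524, minus strand): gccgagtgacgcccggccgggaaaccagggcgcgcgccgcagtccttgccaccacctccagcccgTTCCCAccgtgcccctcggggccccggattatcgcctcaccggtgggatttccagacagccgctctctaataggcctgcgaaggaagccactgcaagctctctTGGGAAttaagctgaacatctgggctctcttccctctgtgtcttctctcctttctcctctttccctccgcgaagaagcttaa
The matches began 123 and 109 bases before the start in Hes1, 242 and 98 in Hes5, and 185 and 82 in Dll1. The N box CACNAG, a sequence bound by Hes proteins, was found 4 times each in Hes1 and Notch1, once each in Notch3 and Hes6, and not in the windows of the other 5, counting both strands. It was found at least 1 time in 37.2% of all promoters, 2 or more times in 8.02% and 3 or more times in 1.19%. A match is a description of the letters and does not show binding in these embryos.

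Levels below are the authors' linear intensities, with mean ± SD over pools. Differences were taken on log2(intensity + 8.25) with limma. Of the 11 probe sets, 5 lay above the filter, equal to a mean intensity near 17.3 (Notch3, Dll1, Jag1, Hes1 and Hes6), and 6 lay below it (both of Notch1, Notch2, Dll3 and both of Hes5). Hes1 lay just inside, with a mean over the 9 pools of 17.9, and Dll3 just outside, with 17.1. Pools of whole tissue cannot tell fewer cells of a type from less RNA per cell. The array medians lay between 31.0 and 33.9. The 3'/5' ratio of beta-actin, which rises as RNA degrades, was 6.98 to 7.98 in mutant and 8.19 to 19.2 in wild-type pools, against 6.66 in the negative control. It was highest in wild-type replicate 2, and every wild-type pool was above every mutant pool (exact two-sided permutation p = 0.0286 on the means). RNA quality as read from the actin ratio therefore cannot be told apart from group between mutant and wild-type pools. The 3'/5' ratio of Gapdh spanned 2.492 to 2.587 for mutant pools and 2.585 to 3.561 for wild-type pools, with 2.68 for SDneg. It was also highest for wild-type replicate 2, but wild-type replicate 1 (2.585) lay just below mutant replicate 1 (2.587), so these ranges overlapped. The part of the Gapdh ratio in the differences was not tested. Replicates 2, 3 and 4 of both transgenic groups carry a title tag, le2, of unstated meaning. The tissue label was checked against markers: the motor neuron genes Isl1 (468 ± 104 in mutant, 337 ± 36.9 in wild-type pools) and Chat (155 ± 29.7 and 130.0 ± 23.7) and the ventral progenitor gene Nkx6-1 (145 ± 32.9 and 170 ± 6.03) were measured above the filter, while Olig2 was not, at 6.18 ± 2.49 and 6.02 ± 3.79. Of the genes listed for the neural crest lineage, Pou4f1 (168 ± 35.0 and 151 ± 49.0), Ngfr and Ntrk3 were also above the filter, and Sox10, Erbb3 and Foxd3 were not. These markers do not show how purely ventral the tissue was.

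**Figure D1:**
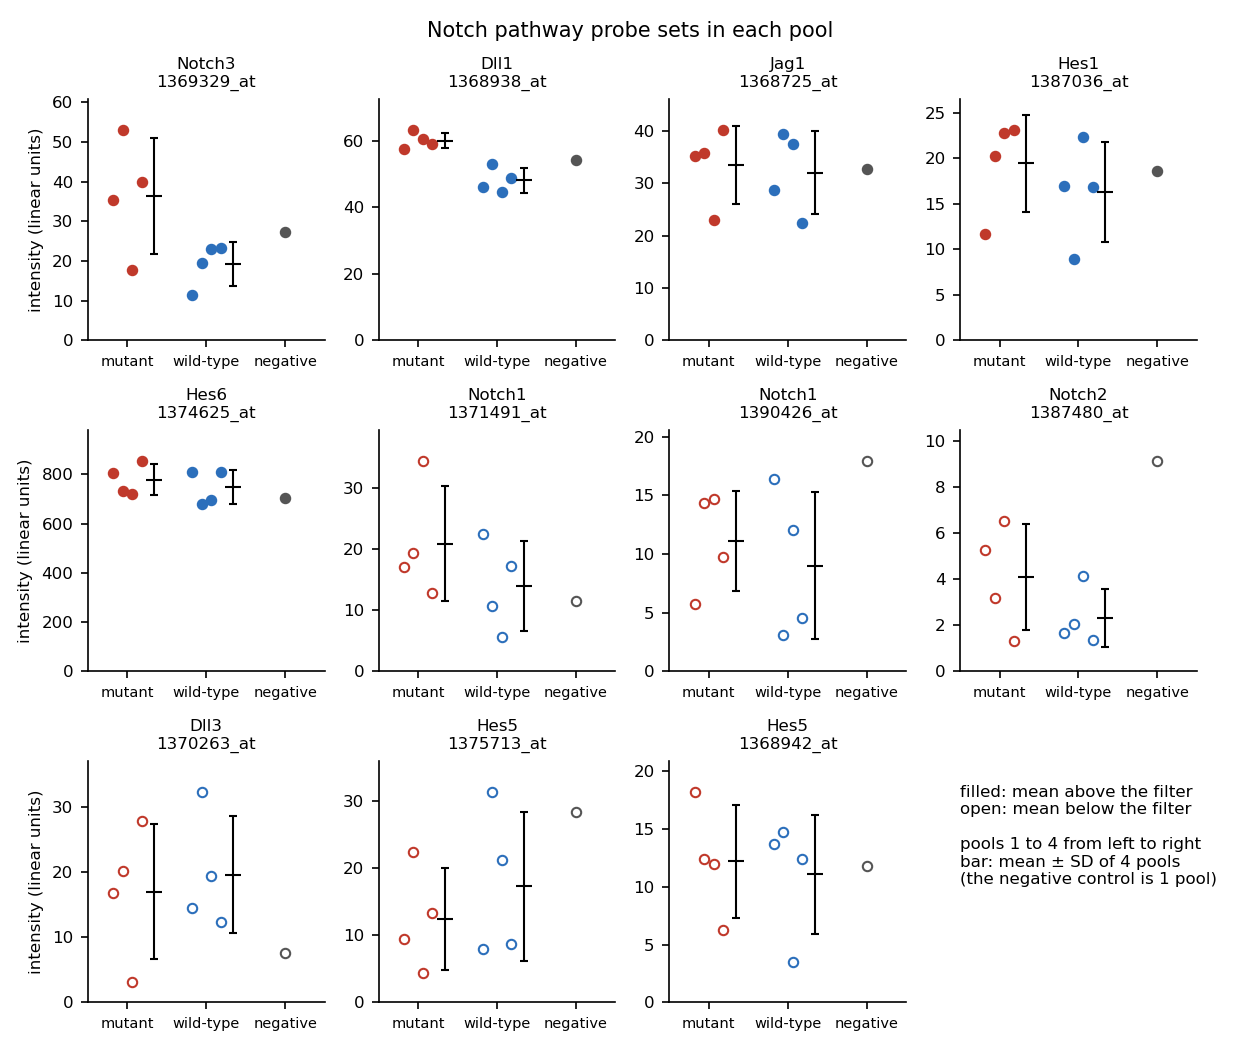
Intensity of each of the 11 Notch probe sets in every pool, by group, on linear axes from 0 that differ between panels. Points are pools, bars the mean ± SD of 4 pools, and open points mark probe sets below the filter. The mutant and wild-type points of Dll1 do not overlap, and those of the other 10 probe sets do.

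Between mutant and wild-type hSOD1 no Notch gene passed the test: limma called 0 of the 5 probe sets above the filter after Benjamini-Hochberg adjustment, against 3 of 18625 (0.0161%) over the array. At an unadjusted p under 0.05 stood 2 of the 5, Dll1 and Notch3, against 918 of 18625 (4.93%). The ligand gene Dll1 was the member whose groups separated. Its intensity (1368938_at) was 57.7, 63.2, 60.6 and 59.0 in mutant pools 1 to 4, 46.2, 52.9, 44.6 and 48.8 in wild-type pools 1 to 4, and 54.4 in the negative control. All 4 mutant pools lay above all 4 wild-type pools, which held for 1.71% of the tested probe sets in this direction. The negative control lay between the groups, above every wild-type and below every mutant pool, an order found at 30 of 18625 tested probe sets (0.161%) with mutant pools on the higher side. The means were 60.1 ± 2.35 and 48.1 ± 3.63 (n = 4 each). On the log2 scale they were apart by 0.28 (SE 0.120, 95% interval 0.02 to 0.54, limma adjusted p = 0.929), or 1.21-fold on that scale. Without wild-type replicate 2, whose actin ratio was highest, the Dll1 difference was 0.32, and adding the actin ratio to the fit gave 0.36. As the ratio separates the groups, neither value can tell RNA quality from group.

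Notch3 had the larger difference and the larger spread. Its intensity (1369329_at) was 35.3, 52.9, 17.6 and 39.8 in mutant pools 1 to 4, 11.4, 19.4, 22.9 and 23.3 in wild-type pools 1 to 4, and 27.4 in the negative control. Mutant pools 1, 2 and 4 lay above every wild-type pool and above the negative control, while mutant pool 3 lay among the wild-type pools. The means were 36.4 ± 14.6 and 19.3 ± 5.51 (n = 4 each). Their log2 difference was 0.66 (SE 0.248, 95% interval 0.12 to 1.19, limma adjusted p = 0.929). Leaving out mutant replicate 3 gave a difference of 0.90, and leaving out mutant replicate 2, the highest pool, gave 0.48, with adjusted p of 0.991 and 0.877. All 4 wild-type pools were below the negative control for this gene.

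Since Notch3 also marks mural cells, the mural list was set beside it. The summed intensity of its 10 genes was 215 to 242 in mutant pools, 226 to 252 in wild-type pools, against 220.0 in the negative control. The ranges overlapped, with medians of 232 and 231. Acta2 and Myh11, the brightest genes of the list, weigh most in this sum. The pericyte genes Pdgfrb and Rgs5 were 5.85 ± 4.31 and 17.8 ± 3.08 in mutant and 10.8 ± 1.64 and 21.9 ± 6.32 in wild-type pools, both with the lower mean in mutant pools and Pdgfrb below the filter. The contractile genes Acta2 and Myh11, at 74.01 ± 16.3 and 54.9 ± 14.5 in mutant and 66.4 ± 13.7 and 48.7 ± 10.1 in wild-type pools, had the higher mean in mutant pools. Of the mural genes above the filter, 3 had a difference above 0 and 3 below. Endothelial genes summed to 86.9 to 116 in mutant and 81.1 to 94.98 in wild-type pools over 10 genes, with 2 above the filter, Tek at 22.2 ± 0.942 and 20.2 ± 2.89 and Esam at 20.4 ± 7.53 and 19.6 ± 8.28. Pecam1 was below it, at 4.999 ± 2.87 and 2.41 ± 0.744. The part of these cells in the Notch3 value was not tested.

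For Jag1, Hes1 and Hes6 the mutant and wild-type pools covered overlapping ranges. Jag1 (1368725_at), a ligand of the Jagged type, was 35.2, 35.7, 22.9 and 40.04 in mutant pools 1 to 4, 28.6, 39.4, 37.5 and 22.4 in wild-type pools 1 to 4, and 32.7 in the negative control. The groups covered nearly the same range, and the log2 difference was 0.06 (95% interval −0.35 to 0.46, limma adjusted p = 0.977). Hes1 (1387036_at) was 11.7, 20.2, 22.8 and 23.0 in mutant pools 1 to 4, 16.9, 8.98, 22.3 and 16.8 in wild-type pools 1 to 4, and 18.6 in the negative control. The lowest Hes1 values were mutant replicate 1 and wild-type replicate 2, and the difference of 0.18 (95% interval −0.28 to 0.65, limma adjusted p = 0.950) turned to −0.09 with the actin ratio as a covariate. It was 0.02 without wild-type replicate 2 and 0.33 without mutant replicate 1.

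Hes6 (1374625_at) was 806, 733, 719 and 852 in mutant pools 1 to 4, 809, 679, 695 and 808 in wild-type pools 1 to 4, and 705 in the negative control. Within each transgenic group pools 1 and 4 were at 806 or above and pools 2 and 3 at 733 or below, and the groups overlapped almost fully. The high and low Hes6 pools thus carried the same replicate numbers in both groups. Whether these numbers mark a shared factor was not tested. With a replicate block in the fit the Hes6 difference stayed at 0.06 (limma adjusted p = 0.925). The means were 777 ± 62.5 and 748 ± 70.1, with a log2 difference of 0.06 (95% interval −0.14 to 0.25, limma adjusted p = 0.960). This was the narrowest interval of the 5 genes. It leaves room for a Hes6 difference of up to about 0.25 on the log2 scale. The sign turned with the actin ratio as a covariate, at −0.03, and leaving out 1 pool gave 0.01 (without mutant replicate 4 or wild-type replicate 2) to 0.10 (without wild-type replicate 1).

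The 6 probe sets below the filter had coefficients of variation of 38.2% to 61.1% among mutant and 45.4% to 69.6% among wild-type pools. Notch1 (1371491_at) was 17.0, 19.3, 34.4 and 12.9 in mutant pools 1 to 4, 22.5, 10.7, 5.58 and 17.2 in wild-type pools 1 to 4, and 11.5 in the negative control. The groups overlapped, and mutant pool 3 was the highest. The other Notch1 probe set, 1390426_at, had means of 11.1 ± 4.25 and 9.02 ± 6.28 and 17.9 in the negative control, above all 8 transgenic pools, while for 1371491_at 6 of 8 transgenic pools were above the negative control. The probe sets of Notch1 thus ordered the negative control differently. Over the 9 pools their log2 values had Pearson r = 0.238 (exact permutation p = 0.538, adjusted over 2 genes 0.627) and Spearman rho = 0.35 (exact permutation p = 0.359). Without the 2 pools farthest from the median r was 0.306.

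Dll3 (1370263_at) was 16.9, 20.1, 3.11 and 27.9 in mutant pools 1 to 4, 14.4, 32.2, 19.5 and 12.4 in wild-type pools 1 to 4, and 7.57 in the negative control. All but mutant pool 3 were above the negative control. Notch2 (1387480_at) had 1.32 to 6.53 in mutant and 1.34 to 4.13 in wild-type pools, against 9.10 in the negative control. That all 8 transgenic pools were below the negative control held for Notch2 and for 1390426_at of Notch1, and for 11.0% of all 31042 probe sets. Fitted without a filter, Notch2 differed from the negative control by −0.62 for both transgenes (95% interval −1.18 to −0.06) and by −0.72 for wild-type hSOD1 (−1.32 to −0.13), with limma adjusted p of 1.00 and 0.973.

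Hes5 (1375713_at) was 9.49, 22.4, 4.45 and 13.2 in mutant pools 1 to 4, 7.88, 31.2, 21.2 and 8.76 in wild-type pools 1 to 4, and 28.4 in the negative control. The groups overlapped, and only wild-type replicate 2 was above the negative control. The other Hes5 probe set, 1368942_at, had means of 12.2 ± 4.85 and 11.1 ± 5.14 and 11.8 in the negative control. Over the 9 pools the log2 values of both had r = −0.186 (exact permutation p = 0.627, adjusted over 2 genes 0.627) and rho = −0.10 (exact permutation p = 0.810). Without the 2 pools farthest from the median r was −0.532. With both probe sets at this level, no Hes5 difference was detectable. Fitted without a filter, the 6 low probe sets differed between mutant and wild-type pools by −0.28 (Hes5, 1375713_at) to 0.41 (Notch1, 1371491_at), and every one of their 95% intervals held 0. Of all 11 probe sets, 9 had a difference above 0 and 2 below, where 52.5% of all probe sets were above 0.

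**Figure D2:**
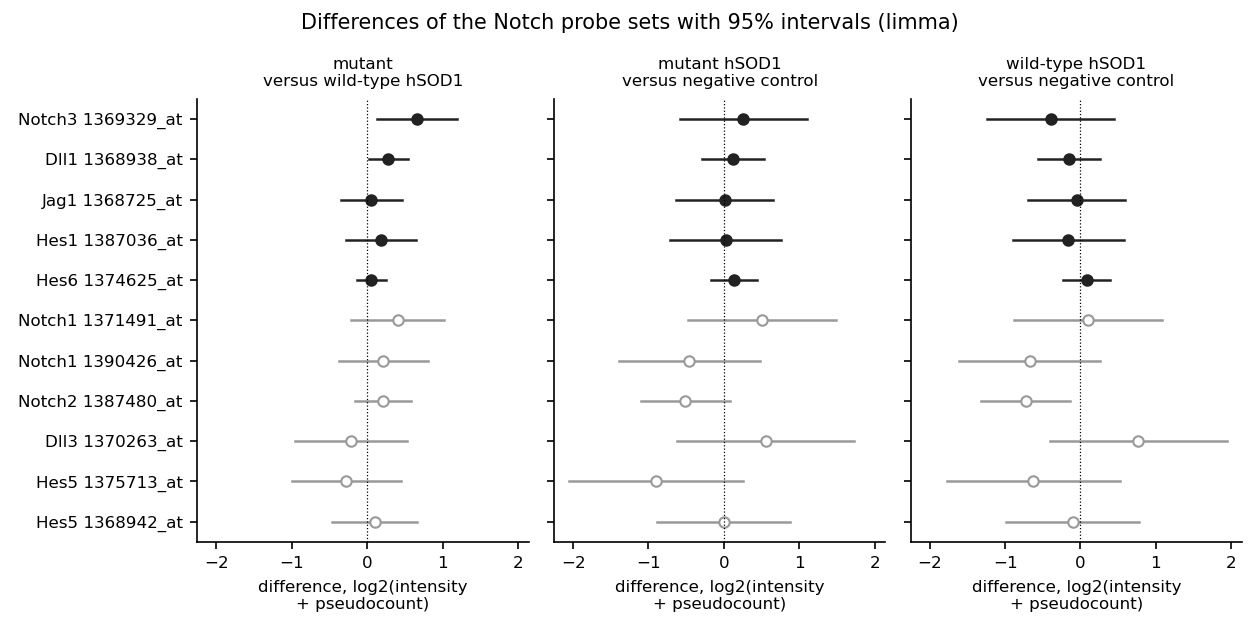
Log2 differences of the 11 Notch probe sets with limma's 95% intervals, for mutant against wild-type pools and for each transgenic group against the negative control. Filled points are probe sets above the filter, and open points are fitted without the filter. Between mutant and wild-type pools the intervals of Notch3 (0.12 to 1.19) and Dll1 (0.02 to 0.54) lie above 0 before any adjustment, as that of Notch2 lies below 0 for wild-type pools against the negative control (−1.32 to −0.13).

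Against the negative control, limma called 0 of the 5 Notch probe sets above the filter, whether the mutant group, the wild-type group or their mean was compared, and 0 stood at an unadjusted p under 0.05 each time. Over the array it called 0 of 18625 (0.0%) in each. With no adjustment, p was under 0.05 at 581 probe sets (3.12%) for the mean of both, 427 (2.29%) for mutant and 797 (4.28%) for wild-type hSOD1. The mean of both transgenic groups differed from the negative control by −0.01 for Dll1 (95% interval −0.40 to 0.38), −0.07 for Notch3 (−0.87 to 0.73), −0.02 for Jag1 (−0.63 to 0.59), −0.07 for Hes1 (−0.76 to 0.63) and 0.11 for Hes6 (−0.18 to 0.40). The comparisons of each transgenic group share the same single control pool. For Dll1 the mutant pools differed from it by 0.13 and the wild-type pools by −0.15, and for Notch3 by 0.26 and −0.40 (limma adjusted p of 0.980 to 1.00). With 1 control pool, whose spread is taken from the transgenic pools, these intervals are wider than between the transgenic groups. For Hes6 all 4 mutant pools and 2 of the 4 wild-type pools were above the control.

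The other genes of the pathway were counted on 1 probe set per gene, the brightest. Between mutant and wild-type hSOD1 limma called none of them. Among 9868 genes above the filter 2 were called, 54.3% had a difference above 0 and the median was 0.01 on the log2 scale. Of 8 other receptor and ligand genes, 7 had a probe set with 1 symbol and 5 were above the filter. All 5 had differences above 0 (median 0.17), with 0 at an unadjusted p under 0.05. Ccn3, a secreted matrix protein that can bind Notch, was 35.7 ± 12.3 in mutant pools and 26.1 ± 6.89 in wild-type pools, and Dlk1, a Delta-like protein that lacks the receptor-binding domain, was 80.98 ± 6.996 and 71.1 ± 8.62. Dlk2, Cntn1 and Jag2 differed by 0.17, 0.17 and 0.07. The vascular members Dll4 and Notch4 were below the filter, at 14.02 ± 4.58 and 9.16 ± 6.33 in mutant and 19.0 ± 7.16 and 14.2 ± 9.75 in wild-type pools.

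Genes that modify Notch or traffic its ligands were measured at 9 of 14, with 5 differences above 0 and 4 below (median 0.0011). The only one at an unadjusted p under 0.05 was Mfng, a fringe glycosyltransferase that changes which ligands a receptor answers to. Mfng was 57.1 ± 8.86 in mutant pools, 77.2 ± 12.4 in wild-type pools, with 66.9 for the control pool. Its log2 difference was −0.38 (SE 0.148, limma adjusted p = 0.929). As with Dll1, the mean levels of the transgenic groups lay on opposite sides of the control, here with the mutant pools lower and with overlap. Numbl, a relative of the Notch inhibitor Numb, was 241 ± 22.6 and 284 ± 45.9, and Mib2 and Neurl1, ubiquitin ligases that act on ligands, differed by 0.06 each.

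The cleavage machinery was measured at 7 of 9 genes, with 6 differences above 0 and 1 below (median 0.04). Nicastrin (Ncstn), a subunit of gamma-secretase, was 145 ± 21.3 in mutant pools and 125 ± 7.85 in wild-type pools, and Adam10, the protease of the first activating cut, 46.7 ± 6.42 and 39.98 ± 8.14. Psenen, another subunit, was 976 ± 95.4 and 1057 ± 86.7, and Furin, which processes the receptor on its way to the surface, differed by 0.11. Genes of the nuclear complex and of its turnover were measured at 17 of 20, with 12 above 0 and 5 below (median 0.04). Rbpj itself, the DNA-binding partner of Notch, was 852 ± 81.3 in mutant pools, 828 ± 34.9 in wild-type pools, against 993 in the negative control. The corepressor gene Tle4 was 1001 ± 78.6, 885 ± 67.2 and 1188, and Spen, Cdk8 and Maml1 differed by 0.15, 0.15 and 0.17. In these lists 0 genes stood at an unadjusted p under 0.05 between mutant and wild-type pools.

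Other targets and feedback genes were measured at 8 of 15, with 7 above 0 and 1 below (median 0.11), and 0 at an unadjusted p under 0.05. Hey1, a Hes-related repressor, was 65.7 ± 3.59 in mutant pools and 59.4 ± 13.1 in wild-type pools, against 59.0 in the negative control. Nrarp, a feedback inhibitor of Notch, was 26.6 ± 4.496, 23.7 ± 3.58 and 15.7, Id1 27.1 ± 2.69, 23.7 ± 2.64 and 15.2, and Dtx4 484 ± 49.6, 448 ± 42.1 and 432. Against the negative control Id1 differed by 0.51 for both transgenes together (unadjusted p = 0.0382, limma adjusted p = 1.00).

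Proneural genes, which Hes proteins repress, were mostly too low to test: 9 of 15 had a probe set with 1 symbol and 4 were above the filter, with 2 differences above 0 and 2 below. Neurod1 was 292 ± 31.5 in mutant pools, 367 ± 61.6 in wild-type pools, with 318 for the control pool; its log2 difference was −0.31 (SE 0.122, unadjusted p = 0.0228, limma adjusted p = 0.929). Neurod6 was 34.8 ± 16.4 and 57.0 ± 26.1, and Ebf1 672 ± 110.2 and 665 ± 122. Gadd45g was 71.9 ± 6.64 and 72.3 ± 14.98 in the transgenic groups and 37.6 in the negative control. Neurog2, which drives Dll1 in the cord, was below the filter at 11.5 ± 7.90 and 17.7 ± 4.60. Against the negative control, with both transgenes together, limma called 0 genes of the 6 pathway and proneural lists. At an unadjusted p under 0.05 were Tle4, with a difference of −0.34, Id1, and Gadd45g, with 0.80. These are 3 of the 50 genes above the filter in these lists, against 298 of 9868 (3.02%) over all genes. In limma the adjusted p was 1.00 for each.

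Progenitor genes, among which Notch is active, were above 0 at 4 and below at 5 of 9 measured of 16, with a median of −0.04. Slc1a3, the glial glutamate transporter of radial glia, was 83.4 ± 5.21 in mutant pools and 111 ± 10.2 in wild-type pools with no overlap, in the direction opposite to Dll1, where 1.24% of probe sets had mutant pools lower without overlap (log2 difference −0.38, SE 0.113, limma adjusted p = 0.929). Pax6 was 108 ± 17.99 and 114 ± 16.03, Nes 43.2 ± 4.496 and 45.3 ± 7.18 and Vim 569 ± 93.5 and 581 ± 8.05. On the other side, Prom1, a membrane protein of progenitors, was 245 ± 46.3 and 222 ± 25.7, and Sox2, Sox3 and Fabp7 differed by 0.11, 0.06 and 0.05. The summed progenitor level was 1392 to 1960 in mutant and 1495 to 1935 in wild-type pools over 14 genes, and that of 14 neuronal genes 32150 to 38220 and 34680 to 35300, both with overlap. The brightest genes weigh most in such sums, Vim and Fabp7 among the progenitor genes. Of the neuronal genes 9 had a difference above 0 and 5 below (median 0.03). The motor neuron gene Isl1 differed by 0.45 (SE 0.140, 95% interval 0.14 to 0.75, limma adjusted p = 0.929) with overlap, the one neuronal gene at an unadjusted p under 0.05, in the same direction as Dll1 and Notch3. Its relative Isl2 differed by −0.03, and the cholinergic genes Chat and Slc18a3 by 0.23 and 0.29, all with overlap. The part of cell composition in the Dll1 and Notch3 values was not tested. All 9 genes listed for microglia were below the filter.

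**Figure D3:**
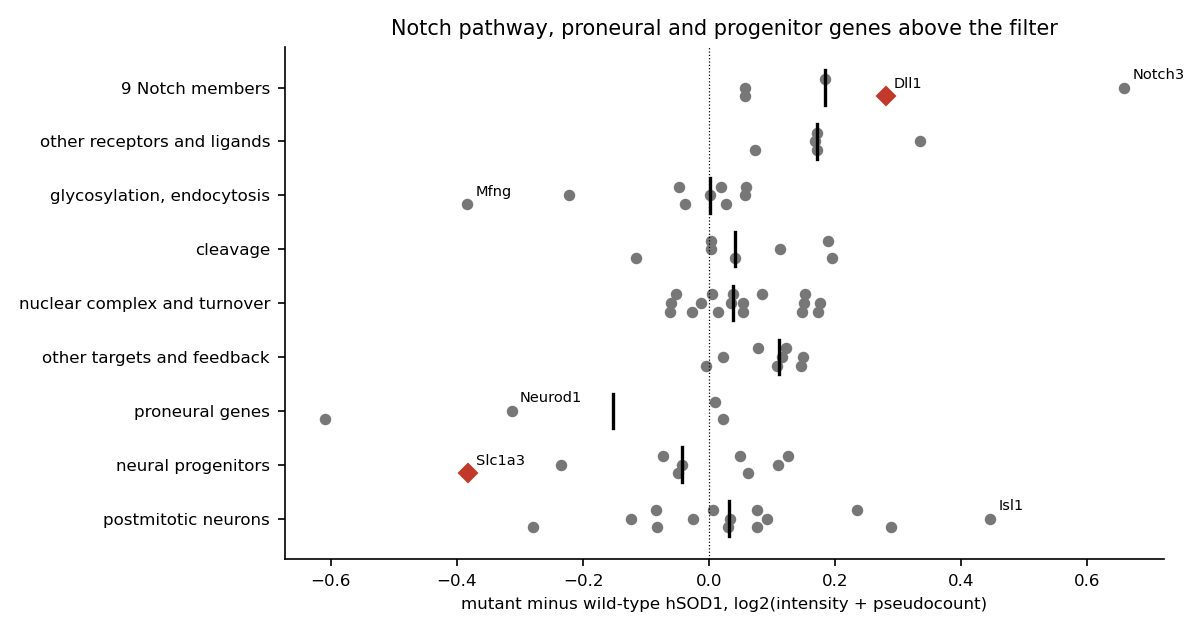
Mutant minus wild-type log2 difference of each gene above the filter, by list, with the list's median as a black line; vertical offsets within a row only separate points. Red diamonds are genes whose groups do not overlap, Dll1 and Slc1a3, and names mark an unadjusted p under 0.05; none of the genes drawn passed after adjustment.

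The genes whose log2 values followed Dll1 most closely over the 9 pools were Zfp692 (Pearson r = 0.916), Myrip (0.912) and Tead2 (0.889). Zfp692 was 44.5 ± 2.95 in mutant pools, 33.8 ± 3.75 in wild-type pools, against 36.5 in the negative control, Myrip 45.4 ± 4.52, 32.8 ± 3.03 and 41.1, and Tead2 42.5 ± 4.83, 26.3 ± 9.40 and 30.4. These were the highest of many correlations over 9 pools in which the Dll1 groups are apart, so a gene with the same difference between groups ranks high. For Hes5, on 1375713_at alone, they were Nhp2 (0.957), Fancd2os (0.946) and Aatk (0.934). For Notch1, on 1371491_at alone, they were Gpat4 (0.930), Slc39a7 (0.908) and Abcb6 (0.897). Hes5 and Notch1 themselves were below the filter. The other probe set of the same gene had r = −0.186 with 1375713_at for Hes5 and 0.238 with 1371491_at for Notch1. These lists therefore describe 1 low probe set of each gene.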

How the data were processed

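The authors deposited linear intensities, 1 for each probe set on each array; no software is named in the sources used here. The authors' scaling was read from the values: trimming 2% at each end left a mean of 150.05 in all arrays. The table lists 31099 probe sets, of which 57 are Affymetrix controls and stayed out of the tests. In the platform annotation 20826 had 1 gene symbol, 436 had several and 9780 had none. A pseudocount of 8.25 (25th percentile of the table) was added before log2, and the 18625 probe sets whose mean log2 value exceeded the 40th percentile were tested. The models were fitted with limma 3.58.1 (R 4.3.3), by lmFit and trended eBayes (Benjamini-Hochberg over all tested, threshold 0.05). The fits were also run on simulated data with independent noise, which held no effect of RNA quality or of the le2 tag. That run says nothing about such effects in these pools. Mutant and wild-type pools were compared on 8 arrays, and comparisons with the negative control used 9. Each p-value sets a difference against the spread between pools of a group, as moderated by limma, and the number of arrays limits the precision. The single negative control pool adds nothing to this spread. The members, lists and tests were chosen with earlier results of these data known. All member probe sets are described; of each pathway list up to 4 genes with the smallest p are named, and others (Rbpj, Dll4, Notch4, Neurog2, the cell type markers) were added after their values were seen. Same-numbered mutant and wild-type pools had deviations correlated at 0.124, 0.0868, −0.0744 and 0.201, so the numbers were not taken as pairs. The alternatives are given in the closing section. Sequences come from RefSeq (GRCr8); all 9 promoters were found.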

Additional observations from a re-analysis of the deposited data

Results flagged for a closer look

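Dll1 was singled out because all 4 mutant pools lay above the negative control (54.4) and all 4 wild-type pools below it. The difference between the transgenic groups was tested and did not pass (limma adjusted p = 0.929). In 22 groups of 4 pools, 2 for each Notch probe set, no pool stood apart by Dixon's criterion.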

How the results depend on the processing

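Under every alternative run, 0 Notch probe sets passed in any of the 4 comparisons; at the 60th percentile only Hes6 was still tested. Dll1 and Notch3 kept a difference above 0 between mutant and wild-type pools under all 21 alternatives that tested them, from 0.20 to 0.36 and from 0.39 to 0.90, the lowest with 4 times the pseudocount. Changes of filter, trend, probe set choice, le2 covariate or replicate block cannot move these differences. Leaving out 1 pool cannot turn the sign of Dll1, whose groups do not overlap. Their adjusted p lay between 0.608 and 1.00 and between 0.540 and 1.00. The unadjusted limma p was under 0.05 in 11 of the 21 for Dll1 and in 16 for Notch3. It was highest on the le2 arrays alone, at 0.101 and 0.105. Over the array, calls between mutant and wild-type pools were 3, but 5 with median centring, 1 without a filter, with the 60th percentile or with the le2 tag as a covariate, 0 without an intensity trend, with the actin ratio as a covariate or on the le2 arrays alone (993, 680 and 670 at an unadjusted p under 0.05 in limma), and 1 to 3 leaving out 1 pool. The calls were 1 without mutant replicate 1, wild-type replicate 1 or wild-type replicate 3. Against the negative control 1 probe set passed in place of 0 with a pseudocount of 2.06 (both transgenes, mutant, wild-type), with median centring and with 1 probe set per gene (both transgenes, wild-type), and 0 to 1 leaving out 1 pool, the 1 without wild-type replicate 1. With a replicate block the calls were 3, and Dll1 and Notch3 kept 0.28 and 0.66 with adjusted p of 0.770 and 0.691. Signs turned for Hes6 (−0.0298) and Hes1 (−0.0893) between mutant and wild-type pools with the actin ratio, for Jag1 (−0.0044) on the le2 arrays and from −0.0673 to 0.19 leaving out 1 pool. Against the negative control they turned for Jag1 (0.0110 and 0.0107) and Dll1 (0.0046 and 0.0160) with quantile normalization and median centring, and for Hes1 with the actin ratio (0.14). Leaving out 1 pool there gave −0.0632 to 0.0482 for Jag1, −0.0336 to 0.0015 for Dll1, −0.16 to 0.0516 for Notch3 and −0.13 to 0.0113 for Hes1. Leaving out 1 pool moved Hes1 and Hes6 between mutant and wild-type pools from 0.0240 to 0.33 and from 0.0118 to 0.0952. The cause was not tested. For the 6 probe sets below the filter, the low signal limits what can be seen.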
